A study of Mus musculus with 4 samples.

Results

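Chondrocytes of *Xbp1*Col2CreΔex2 *Matn3*V194D mice (double mutant) were compared with those of *Xbp1*Col2CreΔex2 mice (XBP1 null), to see which transcripts went with the matrilin-3 mutation when XBP1 signalling was absent. The arrays were chosen by their sample titles, and they were 2 of the 4 arrays of the series. XBP1 null mice carried a deletion of *Xbp1* exon 2, made by a Cre recombinase under the *Col2a1* promoter, which is active in cartilage, and had normal *Matn3*. Double mutant mice carried the same deletion and the p.V194D knock-in in *Matn3*, so the loss of XBP1 was shared by both groups. The remaining arrays came from wild type mice and from *Xbp1*WT *Matn3*V194D mice (*Matn3* mutant), and their values are given beside the others. All mice were on the C57BL6/J background and 5 days old. RNA came from rib chondrocytes released by collagenase, and each array held a pool of 3 extractions. With 1 array per genotype there is no error, no replicate check and no p-value, and genotype cannot be told apart from any other way in which the pools differed.

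Matrilin-3 is a bridging protein of the cartilage matrix, and the mutant protein misfolds and is kept in the endoplasmic reticulum (ER). Misfolded protein in the ER activates the unfolded protein response (UPR), which signals through the sensors IRE1, ATF6 and PERK. IRE1 splices *Xbp1* mRNA to give an active transcription factor, ATF6 is itself cleaved to a transcription factor, and PERK acts through translation and ATF4. Both XBP1 and ATF6 are known to drive genes of ER folding and ER-associated degradation, so the comparison asks what the mutation did with the XBP1 arm removed.

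The values are signals, linear intensities of probe sets of a 3' expression array. A gene was read from its brightest probe set, values under 1 were set to 1, and a difference over 1.5-fold was counted. Of 18193 genes, 3027 (16.6%) had a signal over 1.5-fold higher in the double mutant and 3066 (16.9%) over 1.5-fold lower. Among the 10982 genes at or above the median intensity, 810 (7.38%) were higher and 1149 (10.5%) lower, and the lower and upper quartiles of the log2 difference were -0.26 and 0.22. These shares are the background for each list below. Over log2 signals of 45037 probe sets, which are not independent, the double mutant array had a Pearson correlation of 0.961 with the XBP1 null array and of 0.974 with the *Matn3* mutant array. Where a gene had a second probe set at or above the median, it went the same way for 173 of 209 higher genes and for 352 of 406 lower genes.

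*Matn3* read 9945 in XBP1 null and 10572 in the double mutant, against 10185 in wild type and 10462 in *Matn3* mutant chondrocytes. For *Xbp1* the signals were 7877 and 9548, against 8183 and 11403. Below, a pair of signals is XBP1 null and then double mutant, and a pair after "against" is wild type and then *Matn3* mutant. The deleted allele lacks exon 2, and the place of the probe sets in the transcript was not analysed here, so these signals do not check the deletion. Defining chondrocyte genes were bright on all arrays. *Col2a1*, the main collagen of cartilage, had 13435 in XBP1 null and 13571 in the double mutant, and *Acan*, which encodes aggrecan, had 8242 and 10139.

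The XBP1 null array stood apart from the other 3 in genes of vessels and connective tissue, and every lower signal below has to be read with this in view. Summed over 21 endothelial genes, the signal was 10572 in XBP1 null and 3224 in the double mutant, against 1501 in wild type and 2095 in *Matn3* mutant chondrocytes. The XBP1 null array was the highest of the 4 for 20 of these 21 genes, against 34.2% of genes at or above the median intensity. The sum over 11 genes of smooth muscle and pericytes was 17964 and 12804, against 9037 and 10395, and over 10 adipocyte genes 6628 and 2706, against 1530 and 1766. For 26 genes of perichondrium, tendon and fibroblasts it was 137257 and 115257, against 99523 and 90826. Fewer cells of a type and less RNA per cell cannot be told apart in such pools. How far cell mixture made up the differences below was not tested.

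Genes of ER protein folding had higher signals in the double mutant. Of 16 ER chaperones and co-chaperones, 5 were over 1.5-fold higher and none lower, with a median log2 difference of 0.37, while the median of all genes was 0. The largest differences were in *Sdf2l1*, a partner of ER chaperone complexes, and *Hyou1*, the nucleotide exchange factor of BiP. *Sdf2l1* had 489 in XBP1 null and 1599.8 in the double mutant, 3.27-fold higher. *Hyou1* had 257 and 615, 2.39-fold higher. *Manf*, an ER-resident survival factor, had 5548 and 10462 (1.89-fold), *Hsp90b1*, which encodes the chaperone GRP94, 8555 and 15659 (1.83-fold), and the lectin chaperone *Calr* 7032 and 11675 (1.66-fold). In wild type chondrocytes the same 5 genes had 557, 273, 5125, 8027 and 6835, close to the XBP1 null values. In *Matn3* mutant against wild type chondrocytes 10 of the 16 were over 1.5-fold higher and none lower, where 13.2% of genes at or above the median intensity were higher and 17.6% lower.

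*Hspa5*, which encodes BiP, the main Hsp70 chaperone of the ER, had 14149.9 in XBP1 null and 19811 in the double mutant, 1.40-fold higher and under the 1.5-fold mark. The lectin chaperone *Canx* had 5966 and 8340.4, also 1.40-fold higher. Their other bright probe sets were 1.44-fold and 1.71-fold higher for *Hspa5*, and 1.46-fold and 1.90-fold higher for *Canx*. Some chaperone genes that were over 1.5-fold higher in *Matn3* mutant than in wild type chondrocytes differed by under 1.5-fold here in their brightest probe sets. *Creld2*, which encodes a secretory ER protein, had 1509 and 2009, against 1645 and 4667. *Dnajc3*, the co-chaperone p58IPK, had 1769 and 2102, against 2109 and 3525. Other bright probe sets of *Dnajc3* were 1.35-fold, 1.43-fold, 1.44-fold and 1.59-fold higher, so its brightest gave the smallest difference. These genes were singled out after their values were seen, and whether the difference depends on XBP1 was not tested. Over the whole list, both arrays with the mutation lay above both arrays without it for 12 of 16 genes, against 16.1% of genes at or above the median intensity.

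Among 15 protein disulphide isomerases and ER oxidases, which make and reshuffle disulphide bonds, 4 were over 1.5-fold higher and none lower, with a median log2 difference of 0.21. *Creld1* had 125 in XBP1 null and 382 in the double mutant (3.06-fold), *Pdia4* 1252 and 3232 (2.58-fold), *Txndc11* 62.1 and 112 (1.81-fold) and *Pdia6* 4754 and 8081 (1.70-fold). *Creld1*, *Pdia4* and *Pdia6* were 2.76-fold, 2.52-fold and 1.61-fold higher in *Matn3* mutant than in wild type chondrocytes, near their folds here. *Pdia3*, which works with calnexin and calreticulin, had 9044 in XBP1 null and 10180.4 in the double mutant, against 5259 in wild type and 11986 in *Matn3* mutant chondrocytes. It was lowest in wild type. A second, much dimmer probe set of *Pdia3* read 167 and 403, 2.41-fold higher. The oxidase gene *Ero1b* had 139 and 129, against 116 and 235, high on the *Matn3* mutant array alone.

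ER-associated degradation (ERAD) pulls misfolded proteins back to the cytosol for the proteasome, and 2 of 19 measured genes were over 1.5-fold higher and none lower. *Derl3*, a derlin of the retrotranslocation complex, had the largest upward difference of all genes at or above the median intensity. Its signals were 10.3 in XBP1 null and 356 in the double mutant, against 18.7 in wild type and 472 in *Matn3* mutant chondrocytes, 34.5-fold higher in the double mutant than in XBP1 null. Without the mutation its signals were below 43.8, the median over all probe sets of each array, where ratios are imprecise. *Sel1l*, the adaptor of the HRD1 ubiquitin ligase, had 1141 in XBP1 null and 1922 in the double mutant (1.68-fold). Of its 5 bright probe sets, 4 were over 1.5-fold higher and the dimmest was 1.61-fold lower, at 46.4 and 28.7. *Syvn1*, which encodes HRD1, had 1265 and 1612 (1.27-fold), and *Herpud1*, a scaffold of the same complex, 8471 and 8761 (1.03-fold). The list median was 0.13, and the 2 higher genes were 10.5% of the list. This share is near the 7.38% of genes at or above the median intensity that were higher.

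None of 28 genes of ER translocation and transport passed 1.5-fold, with a median of 0.13 and a range of -0.27 to 0.53. Of the sensors, *Atf6* had 509 in XBP1 null and 405 in the double mutant, *Ern1*, which encodes IRE1, 922 and 754, and *Eif2ak3*, which encodes PERK, 1234 and 1535. None of the 7 genes of this list passed 1.5-fold in its brightest probe set. For *Xbp1*, 1.21-fold higher in that probe set, the other 3 gave 1.45-fold, 1.51-fold and 1.84-fold higher.

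**Figure D1:**
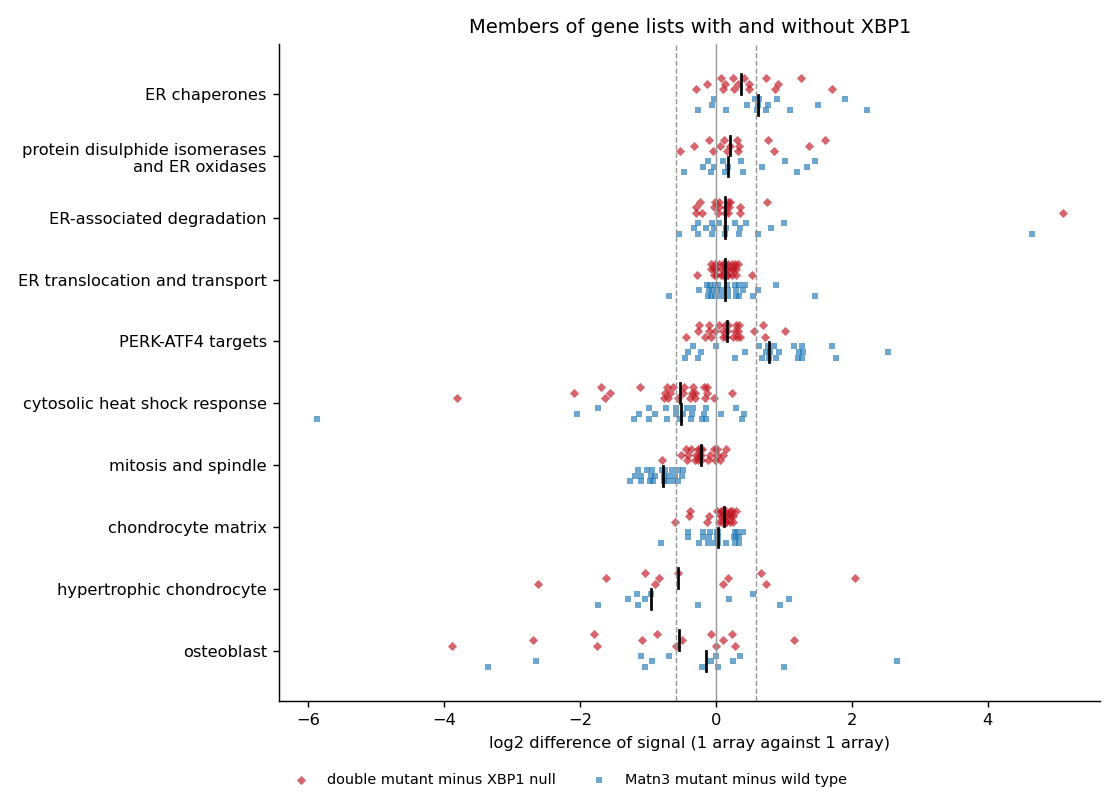
Log2 difference of signal for each measured member of 10 gene lists (points), in double mutant against XBP1 null (red diamonds) and in *Matn3* mutant against wild type chondrocytes (blue squares); black bars are list medians and dashed lines mark 1.5-fold. The medians of ER chaperones lie above 0 and those of the heat shock list below 0 in both comparisons, whereas the PERK-ATF4 median is 0.79 with XBP1 and 0.16 without it.

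Promoters of these ER genes were searched for the ER stress response element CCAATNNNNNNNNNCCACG, to which ATF6 and XBP1 are known to bind, on both strands from 250 bases before to 50 bases after the start site (RefSeq, GRCm38.p6). The element was found in 10 of the 42 genes of the chaperone, isomerase and ERAD lists that had a promoter sequence, and in 0.137% of all 27025 genes of the promoter table. The windows are shown because they include the promoters of *Derl3*, *Hsp90b1*, *Calr* and *Pdia6*, which were over 1.5-fold higher. Capitals mark the fixed bases of the element, read on the strand of the gene, where CGTGG and ATTGG are the element on the opposite strand.
*Derl3*, chr10:75893227-75893275, plus strand: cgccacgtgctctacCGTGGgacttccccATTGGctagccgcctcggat
*Hsp90b1*, chr10:86705623-86705671, minus strand: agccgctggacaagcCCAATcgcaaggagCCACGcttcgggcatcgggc
*Hsp90b1*, chr10:86705518-86705566, minus strand: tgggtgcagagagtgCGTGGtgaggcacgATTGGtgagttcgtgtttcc
*Calr*, chr8:84847060-84847108, minus strand: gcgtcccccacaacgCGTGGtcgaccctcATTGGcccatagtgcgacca
*Pdia6*, chr12:17266476-17266524, plus strand: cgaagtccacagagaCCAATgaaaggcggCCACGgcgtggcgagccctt
*Hspa5*, chr2:34772010-34772058, plus strand: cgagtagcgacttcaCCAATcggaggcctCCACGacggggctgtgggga
*Canx*, chr11:50325785-50325833, minus strand: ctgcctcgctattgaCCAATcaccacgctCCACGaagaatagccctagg
*Creld2*, chr15:88819505-88819553, plus strand: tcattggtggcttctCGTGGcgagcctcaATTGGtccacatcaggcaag
*Dnajc3*, chr14:118937812-118937860, plus strand: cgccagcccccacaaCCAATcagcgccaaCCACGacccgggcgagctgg
*Ero1b*, chr13:12565667-12565715, plus strand: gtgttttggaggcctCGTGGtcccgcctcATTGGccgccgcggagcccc
*Syvn1*, chr19:6046517-6046565, plus strand: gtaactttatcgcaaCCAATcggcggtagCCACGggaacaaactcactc
Of these 10 genes, 4 were over 1.5-fold higher in the double mutant and 9 had a higher signal, with a median log2 difference of 0.48. The exception was *Ero1b*, at -0.11. Of the 32 genes without the element in this window, 5 were over 1.5-fold higher, with a median of 0.13. *Dnajc3*, *Syvn1* and *Creld2* hold the element and differed by under 1.5-fold in their brightest probe sets, and *Derl3* differed by far the most. A match is a description of the sequence, and the windows do not show that a factor was bound. The shorter site TGACGTGG, known to bind XBP1 and ATF6, was found in 4 of the 42 genes (*Txndc11*, *Txndc5*, *Vcp* and *Ube2j1*) and in 0.714% of all genes. Only *Txndc11* of these 4 was over 1.5-fold higher.

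Targets of PERK and ATF4, which serve amino acid supply and stress signalling, differed less than ER chaperones. Of 26 genes, 3 were over 1.5-fold higher, none was lower, and the median log2 difference was 0.16. The transcription factor gene *Atf5* had 903 in XBP1 null and 1819 in the double mutant (2.02-fold), the stress-induced *Nupr1* 5677 and 9381 (1.65-fold) and *Sesn2*, an inhibitor of mTORC1 signalling, 218 and 354 (1.63-fold). *Ddit3*, which encodes the pro-apoptotic factor CHOP, had 6726 in XBP1 null and 9927 in the double mutant, against 7047 in wild type and 7053 in *Matn3* mutant chondrocytes, 1.48-fold above XBP1 null. A second bright probe set of *Ddit3* read 688 and 839, against 1966 and 860, so it was lower in *Matn3* mutant than in wild type chondrocytes. In *Matn3* mutant against wild type chondrocytes, 18 of the 26 genes were over 1.5-fold higher, with a median of 0.79. The levels on the 4 arrays show where these comparisons part. *Asns*, which encodes asparagine synthetase, had 5627 in XBP1 null and 5793 in the double mutant, against 3221 in wild type and 5942 in *Matn3* mutant chondrocytes. *Psat1*, of serine synthesis, had 1993 and 2145, against 1014 and 2431, and the amino acid transporter gene *Slc7a1* 4969.6 and 4651, against 1676 and 5494. In these genes, chosen after their values were seen, XBP1 null cartilage was already high and the double mutant stayed near it. The aminoacyl-tRNA synthetases, which load tRNAs and are also known ATF4 targets, had the same order: 0 of 15 passed 1.5-fold here, with a median of -0.14, and 8 of 15 were higher in *Matn3* mutant than in wild type chondrocytes, with a median of 0.61. *Gars*, the glycyl-tRNA synthetase gene, had 5759 and 5813, against 3121 and 5883.

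Cytosolic heat shock genes had lower signals in the double mutant. This chaperone system, under the control of HSF1, serves mainly proteins of the cytosol, not those of the ER lumen. The list also holds the mitochondrial chaperonin genes *Hspd1* and *Hspe1*. Of 26 measured genes, 12 were over 1.5-fold lower and none higher, 25 had a lower signal, and the median log2 difference was -0.52. *Dnaja4*, an Hsp40 co-chaperone, had 2306 in XBP1 null and 545 in the double mutant, against 5054 in wild type and 1228 in *Matn3* mutant chondrocytes, 4.23-fold lower in the double mutant than in XBP1 null. *Hsph1*, which encodes the Hsp110 chaperone HSP105, had 9677 and 3016, against 10788 and 7695 (3.21-fold lower). The small heat shock protein gene *Cryab* had 2060.0 and 667, against 2955 and 1289 (3.09-fold lower), and a second bright probe set of *Cryab* read 727 in XBP1 null and 182 in the double mutant. A further, dim probe set of *Cryab* read 22.1 and 36.8, the other way.

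*Hspa4l*, another Hsp110 gene, had 131 in XBP1 null and 44.7 in the double mutant (2.94-fold lower), and the Hsp40 gene *Dnaja1* 7643 and 3532 (2.16-fold lower). All 4 bright probe sets of *Hspa4l* and all 3 of *Dnaja1* were over 1.5-fold lower. The mitochondrial chaperonin genes *Hspe1* and *Hspd1* had 4676 and 2793 (1.67-fold lower) and 8413 and 5118 (1.64-fold lower). *Hspa1a*, the inducible Hsp70, had 11324 and 6692 (1.69-fold lower) and its near-identical neighbour *Hspa1b* 15397 and 12128 (1.27-fold lower), and probes for these 2 genes may bind RNA of either. *Hspa1l* had 14.0 and 0.697, against 134 and 2.29, below the median intensity. Differences were smaller in the brightest probe sets of *Hspa8* (13303 and 12175), *Hsp90aa1* (13706 and 10885) and the small heat shock gene *Hspb1* (13139 and 12867). Other bright probe sets of *Hsp90aa1* read 9951 and 4882, 9899 and 4351, and, much dimmer, 42.9 and 47.5, the other way. Its brightest probe set thus gave the smallest difference of the 3 that were lower. The other bright probe sets of *Hspa8* read 12288 and 10161, 7644 and 5610.4, and 3999 and 1181.

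For 17 of 26 heat shock genes the double mutant was the lowest of the 4 arrays, against 9.11% of genes at or above the median intensity, and for 19 both arrays with the mutation lay below both without it, against 22.0%. *Matn3* mutant against wild type chondrocytes gave 11 of 26 genes over 1.5-fold lower, a median of -0.51, and 8 genes lower in both comparisons, which share no array. Of the 9 folding genes that the study named as lower from these arrays, which is no independent evidence, 5 were over 1.5-fold lower.

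**Figure D2:**
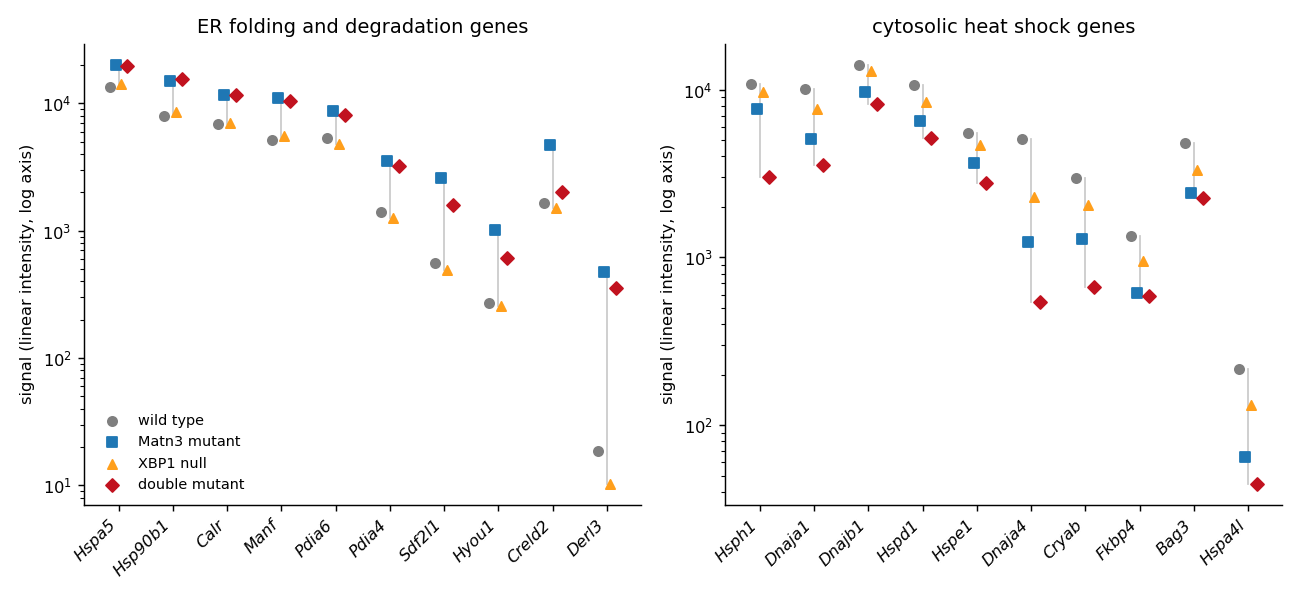
Signal (linear intensity on a log axis) of 10 ER folding and degradation genes (left) and 10 genes of the cytosolic heat shock list (right) on the 4 arrays. The right panel includes the mitochondrial chaperonin genes *Hspd1* and *Hspe1*. There is 1 point per array, and grey lines span the values of a gene. Both arrays with the *Matn3* mutation lie above the others for the ER genes, with the double mutant near XBP1 null for *Creld2*, and below the others for the heat shock genes, with *Hsph1* lowest in the double mutant at 3016.

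The heat shock element was searched on both strands as GAA, TTC and GAA, or TTC, GAA and TTC, with 2 bases of any kind between neighbours. It was in the promoter window of 5 of 22 heat shock genes (*Hsph1*, *Dnajb6*, *Chordc1*, *Hspe1* and *Hspd1*) and of 0.662% of all genes. Of these 5 genes, 3 were over 1.5-fold lower with a median of -0.72, and of the 17 without it 8 were, with a median of -0.55. *Hspe1* and *Hspd1* are head to head and share the stretch below, which is shown because both genes were lower. Capitals mark 1 match, read from each gene's strand.
*Hspe1*, chr1:55088044-55088086, plus strand: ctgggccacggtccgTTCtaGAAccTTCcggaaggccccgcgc
*Hspd1*, chr1:55088044-55088086, minus strand: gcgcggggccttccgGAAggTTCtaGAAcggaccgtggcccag

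Structural genes of cartilage differed little, while genes of the hypertrophic zone differed in both directions and 7 of 14 osteoblast genes were lower. Of 24 genes of the chondrocyte matrix none passed the mark upward and 1 was lower, *Matn1*, which encodes matrilin-1, with 2334 in XBP1 null and 1533 in the double mutant (1.52-fold lower). The list median was 0.12 and the range -0.61 to 0.30. *Comp*, which encodes a partner of matrilin-3 in the matrix, had 17102 and 18237, and *Sox9*, the master regulator of chondrocyte fate, 5485 and 4216.

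Of 11 measured genes that mark hypertrophic chondrocytes, the enlarged cells at the end of the growth plate, 5 were over 1.5-fold lower and 3 higher. *Col10a1*, the collagen of this zone, had 1370.2 in XBP1 null and 223 in the double mutant, against 831 in wild type and 250.1 in *Matn3* mutant chondrocytes, 6.15-fold lower in the double mutant than in XBP1 null. *Alpl*, the phosphatase of mineralization, had 304 and 98.8, against 172 and 77.5 (3.08-fold lower). *Mef2c*, a transcription factor gene of hypertrophy, had 480.3 in XBP1 null and 232 in the double mutant (2.07-fold lower), and 4 of its 5 bright probe sets were over 1.5-fold lower. *Dlx5* (1.87-fold lower) and *Cd200* (1.78-fold lower) went the same way. The genes on the other side were *Vegfa*, the angiogenic factor, with 1579 and 2636 (1.67-fold higher), *Panx3*, a channel of pre-hypertrophic cells, with 857 and 1355 (1.58-fold higher), and *Ihh*, dim throughout, with 7.23 and 30.0. A second bright probe set of *Vegfa* was under the mark, at a log2 difference of 0.15. The zone's markers were therefore not lower as a block.

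Among 14 osteoblast genes 7 were over 1.5-fold lower and 1 higher. Of the 9 at or above the median intensity, 4 were lower and 0 higher. *Tnn*, a tenascin of forming bone, had 643 and 100.2, against 319.5 and 51.0 (6.42-fold lower). *Ibsp*, which encodes bone sialoprotein, had 140.2 and 41.5, against 75.8 and 7.46 (3.37-fold lower). *Col1a1*, the main collagen of bone and fibrous tissue, had 7001 in XBP1 null and 4969.6 in the double mutant (1.41-fold lower), and its second probe set 4055 and 2186. A list of 12 ossification genes that the study named from these same arrays, and which is no independent evidence, had 7 lower and 0 higher, including *Mmp14* (2.11-fold lower) and *Tnc* (1.92-fold lower). *Igf1*, at 1825 and 1267 (1.44-fold lower), and *Igfbp5*, at 1884 and 1293 (1.46-fold lower), were under the mark. XBP1 null was the highest of the 4 arrays for 9 of these 12 genes. *Col10a1* was also 3.32-fold lower and *Tnn* 6.26-fold lower in *Matn3* mutant than in wild type chondrocytes.

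**Figure D3:**
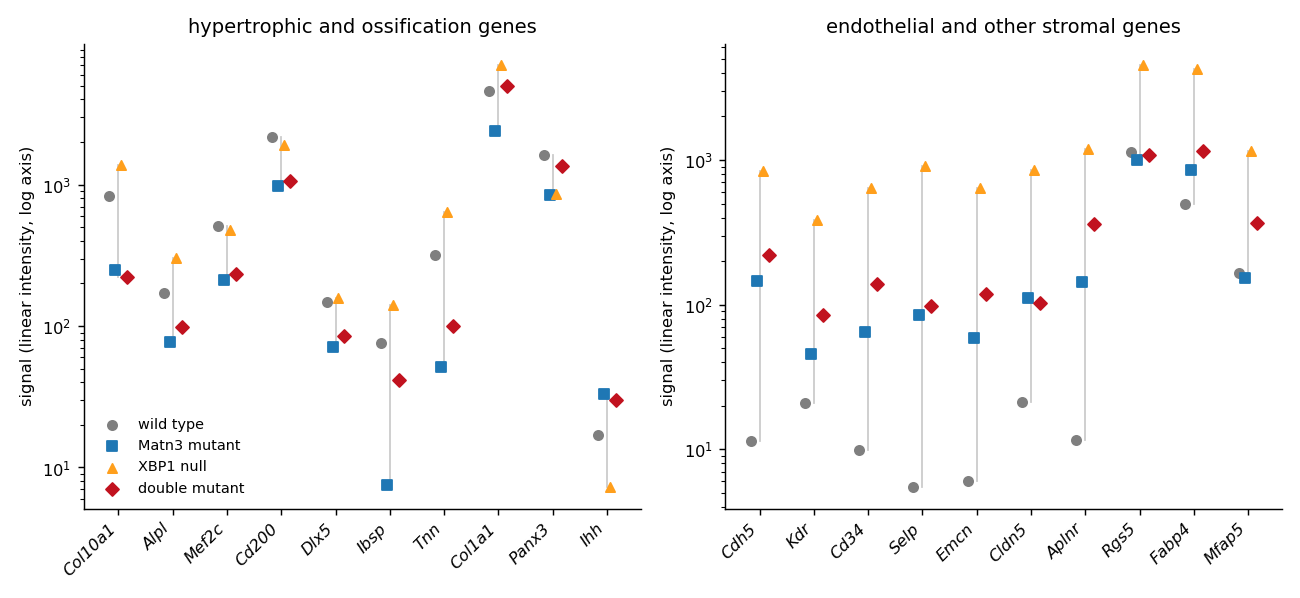
Signal (linear intensity on a log axis) of 10 genes of hypertrophy and ossification (left) and 10 genes of endothelium, pericytes, fat and fibrous tissue (right) on the 4 arrays, 1 point per array; grey lines span the values of a gene. *Col10a1*, *Alpl*, *Mef2c* and *Dlx5* are lower on both arrays with the *Matn3* mutation, while each gene on the right is highest on the XBP1 null array.

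Cell cycle genes were slightly lower and few passed the mark. Of 24 genes of mitosis and spindle, 1 was over 1.5-fold lower, *Ccna2*, which encodes cyclin A2, with 711 in XBP1 null and 412 in the double mutant (1.72-fold lower), and 19 had a lower signal, with a median of -0.22. With XBP1 present, 20 of the 24 were over 1.5-fold lower in *Matn3* mutant than in wild type chondrocytes, with a median of -0.78. *Mki67*, the proliferation marker Ki-67, had 1303 in XBP1 null and 969.6 in the double mutant, against 1668 in wild type and 964 in *Matn3* mutant chondrocytes. The arrays with the mutation were alike, and XBP1 null lay between them and wild type. Of 25 DNA replication genes, 2 were over 1.5-fold lower, the helicase subunit genes *Mcm5* (1161 and 687, 1.69-fold lower) and *Mcm7* (2050.1 and 1337, 1.53-fold lower).

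Of 19 p53 targets and apoptosis genes, 2 (10.5%) were over 1.5-fold higher and none lower. Of genes at or above the median intensity, 7.38% were higher, so this share is near the background. *Bbc3*, which encodes the pro-apoptotic protein PUMA, had 177 and 307, against 231 and 178 (1.74-fold above XBP1 null). The death receptor gene *Fas* had 326 and 517, against 726 and 543 (1.59-fold), highest in wild type. Among 27 genes of autophagy and the proteasome, 2 (7.41%) were higher and none lower, also near that background. *Ulk1*, the kinase that starts autophagy, had 358 and 719, against 334 and 373 (2.01-fold), with both bright probe sets over 1.5-fold higher. *Atg7*, an enzyme of autophagosome conjugation, had 47.1 and 87.4, against 64.5 and 64.8 (1.85-fold). For *Bbc3*, *Ulk1* and *Atg7* the double mutant was the highest array, which it was for 31.0% of genes at or above the median intensity.

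Of 23 genes of MMPs, ADAMTSs and TIMPs, 10 were over 1.5-fold lower and 3 higher. *Mmp3*, which encodes stromelysin-1, had 2688 in XBP1 null and 1679 in the double mutant, against 1783 in wild type and 4696 in *Matn3* mutant chondrocytes, 1.60-fold lower than XBP1 null, and *Mmp10* had 324 and 125, against 210.0 and 400.3 (2.59-fold lower). Both were high in the single mutants and low in the double mutant. *Inhba*, the activin A subunit gene, was also high in both single mutants, with 7577 and 2403, against 2775 and 6473 (3.15-fold lower). *Timp3*, an inhibitor of metalloproteinases, had 6975 and 3089.8, against 2535 and 4072 (2.26-fold lower). *Fgf18*, a growth factor of cartilage, had 806 in XBP1 null and 318 in the double mutant (2.54-fold lower), *Dusp6*, a feedback phosphatase of ERK signalling, 3024 and 1281 (2.36-fold lower), and *Wnt5a*, a secreted WNT ligand, 221 and 52.5. *Fgfr3*, the receptor that restrains chondrocyte proliferation, had 3682 and 5911, against 3529 and 4868, and was 1.61-fold higher. Its second bright probe set was under 1.5-fold, at a log2 difference of 0.29.

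Of other signalling lists, 7 of 19 Notch pathway genes were over 1.5-fold lower and 2 higher, 5 of 31 BMP and TGF-beta genes were lower and 4 higher, 7 of 32 FGF and WNT genes were lower and 3 higher, and 4 of 16 genes of the IGF axis were lower and 2 higher. Of 16 genes of the hedgehog and PTHrP axis, 2 were higher and none lower.

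Inflammatory genes were split. Of 28 NF-kB and inflammation genes, 7 were over 1.5-fold higher and 8 lower. *Icam1*, an adhesion molecule, had 2156 in XBP1 null and 3792 in the double mutant (1.76-fold higher), and *Birc3*, an inhibitor of apoptosis, 1619 and 2916 (1.80-fold higher). The chemokine gene *Ccl2* had 1858 in XBP1 null and 599 in the double mutant, against 1441 in wild type and 604 in *Matn3* mutant chondrocytes (3.10-fold lower), and *Csf2*, which encodes GM-CSF, had 999.8 and 441, against 430.0 and 1371 (2.27-fold lower). Interferon response genes gave 12 of 26 lower and 2 higher, but 11 of the 26 lay below the median intensity, where differences past 1.5-fold were more frequent. Of the 15 at or above it, 6 were lower and 1 higher. Of the remaining pathway lists, cholesterol synthesis had 1 of 20 genes higher and 1 lower, and no gene passed the mark among 27 of splicing and 20 of the immediate early response.

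The largest upward differences among genes at or above the median intensity were, after *Derl3*, in *Slc15a2*, a peptide transporter gene (35.0 in XBP1 null and 218 in the double mutant, 6.23-fold), *Ly6k*, *Serpina3n*, *Cux2*, *Cox8c*, *Foxl2*, *Pnpla3*, *Fn3krp* and *Fbll1*. *Serpina3n*, a serine protease inhibitor gene, was the brightest of them, with 821 in XBP1 null and 4794 in the double mutant, against 1503 in wild type and 3257 in *Matn3* mutant chondrocytes (5.84-fold). *Pnpla3*, which encodes a lipid droplet enzyme, had 144 and 769, against 142 and 1149 (5.34-fold). The other 7 had double mutant signals of 89.6 to 218, near the low end of the bright genes. *Derl3*, *Pnpla3*, *Atf5*, *Manf* and *Bcat2* belong to 12 genes that the study named from these arrays as higher with the mutation, of which 8 were over 1.5-fold higher here, and this count is no independent evidence. *Bcat2*, a branched-chain aminotransferase gene below the median intensity, had 3.19 and 263, against 4.19 and 172.

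The largest downward differences included genes of stratified epithelium. *Klk8*, a kallikrein protease gene of skin, had 398 in XBP1 null and 0.640 in the double mutant, against 149 in wild type and 53.4 in *Matn3* mutant chondrocytes, and *Lce1d*, of the cornified envelope, had 962 and 10.97, against 1094 and 24.95. *Krt13*, a keratin, had 514 and 19.9, against 81.3 and 183, and the kallikrein gene *Klk7* 391 and 21.7, against 146 and 99.3. Of 17 epidermal genes 12 were over 1.5-fold lower and 2 higher, the keratins *Krt5* (33.1 and 84.8) and *Krt4* (10.2 and 29.7), and their summed signal was 3671 and 1142, against 2592 and 1361. *Hey1*, a transcription factor gene downstream of Notch, had 294 and 17.9, against 123 and 20.1 (16.4-fold lower), and was also 6.10-fold lower in *Matn3* mutant than in wild type chondrocytes. *Dusp4*, a MAP kinase phosphatase gene, had 758 in XBP1 null and 65.4 in the double mutant (11.6-fold lower). *Aldh1a3* had 642 and 57.9, against 78.1 and 188 (11.1-fold lower), and *4933412O06Rik* 221 and 12.8, against 17.0 and 87.6 (17.2-fold lower).

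Of all 40 lists, the endothelial one had the largest share of lower genes. Of 21 genes, 19 were over 1.5-fold lower in the double mutant than in XBP1 null, with a median of -2.20, while 14 were over 1.5-fold higher in *Matn3* mutant than in wild type chondrocytes, with a median of 2.10. Over all genes, 21.2% were higher and 19.3% lower in the latter comparison. *Cdh5*, which encodes VE-cadherin, had 838 in XBP1 null and 221 in the double mutant, against 11.5 in wild type and 146 in *Matn3* mutant chondrocytes. *Cd34* had 643 and 139, against 9.96 and 65.03, and *Pecam1*, which encodes CD31, 87.7 and 0.534, against 0.136 and 0.329. Both arrays with the mutation lay between the low wild type and the high XBP1 null array for *Cdh5* and *Cd34*, and *Pecam1* was under 1 on 3 arrays. *Rgs5*, a pericyte gene, had 4524 and 1078, against 1143 and 1004, with all 4 probe sets over 1.5-fold lower in the double mutant than in XBP1 null. *Fabp4*, of fat and capillaries, had 4285 and 1154, against 493 and 858. Of 26 genes of perichondrium, tendon and fibroblasts 10 were lower and none higher. Of 11 genes of smooth muscle and pericytes 7 were lower and none higher, and of 10 adipocyte genes 5 were lower and 1 higher. Among the fibroblast genes were *Mfap5* (1155 and 364) and *Dpt* (871 and 276), both of connective tissue. In lists of other cell types, most of them dim, 8 of 23 skeletal muscle genes were lower and 3 higher, 5 of 21 leukocyte genes lower and 2 higher, 5 of 11 osteoclast genes lower and 2 higher, 3 of 7 erythroid genes lower and none higher, and 2 of 11 neuronal and glial genes lower and 4 higher. The Y-linked gene *Uty* read 233 and 356, against 135 and 0.904, so its signal was near 0 in the *Matn3* mutant pool alone. *Xist*, of the inactive X chromosome, read 5262 and 4101, against 7393 and 9718. Of its 3 bright probe sets, 2 were over 1.5-fold lower in the double mutant than in XBP1 null, the lowest at a log2 difference of -2.07. The Y-linked genes *Eif2s3y* (665 and 855, against 484 and 0.032) and *Kdm5d* (212 and 237, against 151 and 1.65) were also near 0 in the *Matn3* mutant pool alone. Sex-linked signal thus differed between pools, and values of both comparisons carry such a difference beside genotype. For these Y-linked genes it was larger in *Matn3* mutant against wild type than in double mutant against XBP1 null.

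Set beside the mutation with XBP1 present, the differences were shared in part and opposed in part. The comparisons share no array. Among genes at or above the median intensity, 225 were over 1.5-fold higher in both, 27.8% of those higher in the double mutant and 15.5% of those higher in the *Matn3* mutant. In the same way, 296 were lower in both, 25.8% and 15.4% of the respective lists. A further 325 were lower in the double mutant than in XBP1 null and higher in *Matn3* mutant than in wild type. They were 28.3% and 22.3% of the respective lists, so genes lower in the double mutant went the opposite way more often than the same way. Another 102 were the reverse, 12.6% of those higher in the double mutant. Of all genes at or above the median intensity, 13.2% were higher and 17.6% lower in *Matn3* mutant than in wild type. Over the 10982 genes, which are not independent, Pearson's r was 0.03 and Spearman's rho 0.07. Strongest the same way were *Derl3*, *Lce1d*, *Slc15a2*, *Pnpla3*, *Hey1*, *Tnn*, *Rarres1*, *Rrp9*, *1810062G17Rik* and *Dnaja4*, of which *Derl3*, *Slc15a2* and *Pnpla3* were higher and the other 7 lower.

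**Figure D4:**
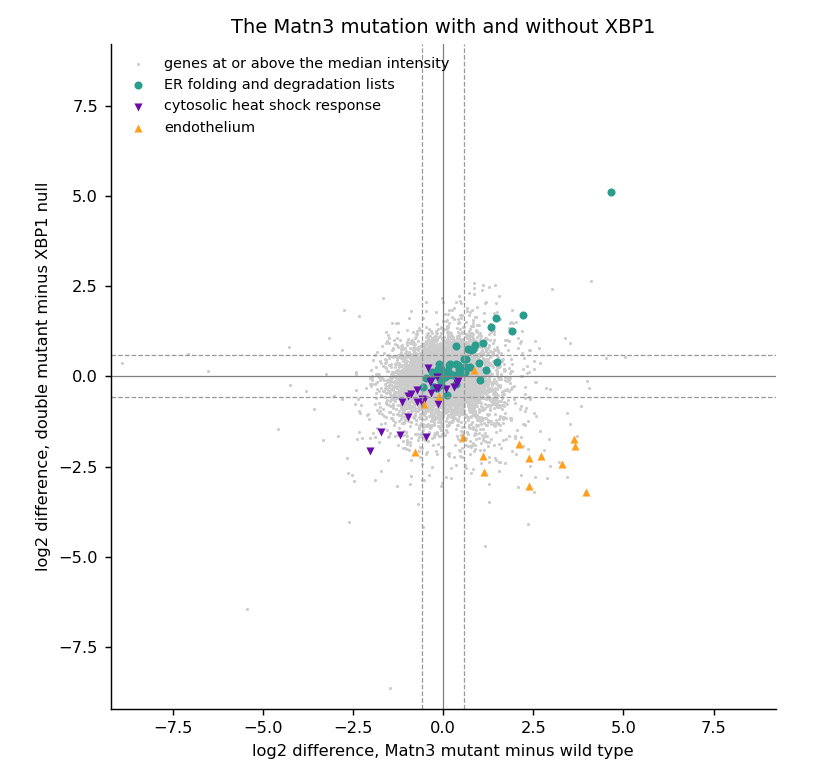
Log2 difference of double mutant against XBP1 null (vertical axis) and of *Matn3* mutant against wild type (horizontal axis) for genes at or above the median intensity (grey), with ER folding and degradation genes (green), heat shock genes (purple) and endothelial genes (orange) marked and 1.5-fold drawn as dashed lines. ER genes lie mostly at upper right with *Derl3* far out, heat shock genes at lower left, and most endothelial genes at lower right.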

How the data were processed

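Values of 4 arrays (Mouse430_2, 3' expression) were used, 1 per genotype, and 2 were compared. The deposited values are linear intensities per probe set made by the authors. How they were summarized and normalized was not given in the sources used here. Medians of all 4 arrays were 43.8, and 8.36% to 10.9% of signals were under 1. The methods name Microarray Suite 5 for control hybridizations and PPLR with a 1.5-fold change. PPLR needs probe-level errors and was not applied. No flag for signal above background was used, and the number of arrays limits the precision.

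Of 45037 probe sets, 34945 name 1 gene symbol in GEO's platform annotation, 932 several and 9160 none, and 34741 of the 34945 were updated through RefSeq (GRCm38.p6). Those naming several were left out. Values under 1 were set to 1, log2 was taken, and a gene was read from the probe set brightest by mean log2 over the arrays. Counting was tested on simulated data. Python 3.11.15, numpy 2.4.6 and pandas 2.3.3 were used.

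The comparison, the 40 gene lists and the naming rule were chosen with earlier results of these data known. Named were *Matn3* and *Xbp1*, the 10 genes most higher and most lower and the 10 most alike or opposed on both backgrounds at or above the median intensity, genes of 3 lists from the paper, and up to 6 members per list. Others were named after their values were seen. Listed genes without a probe set of their own, such as *Runx2* and *Hsf1*, were not analysed here. The alternatives were 2 other scalings, another floor, an intensity filter, a gene's median over its probe sets, 2-fold, and counting probe sets. A further alternative omitted probe sets named with _x_at, _s_at or _a_at, only some of which can bind RNA of other genes.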

Additional observations from a re-analysis of the deposited data

Results flagged for a closer look

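For a set of genes that includes many endothelial ones, the signal was lower in the double mutant than in XBP1 null but higher in *Matn3* mutant than in wild type chondrocytes. The difference was not tested, since there was 1 array per genotype, and genotype and pool cannot be told apart. The summed endothelial signal was high on the XBP1 null array alone. The median log2 difference of the 21 endothelial genes in the absence of XBP1 minus that in its presence was -4.30. The same quantity was -7.17 for *Selp*, -5.72 for *Emcn*, -5.44 for *Cldn5*, -5.59 for *Ptprb*, -5.68 for *Calcrl* and -4.88 for *Cyyr1*, all genes known from endothelium. It was -6.21 for *St8sia4*, a sialyltransferase gene, -5.33 for *Nckap1l*, a gene of blood cells, -5.72 for *Slurp1*, a secreted protein of keratinocytes, and -5.46 for *2900026A02Rik*. These 10 genes were picked as the most opposed, and their wild type signals of 5.08 to 21.3 lay below the median of 43.8, so the sizes are imprecise. Each had its lowest signal in wild type and its highest in XBP1 null chondrocytes, as with *Selp* at 906 in XBP1 null and 97.7 in the double mutant, against 5.46 in wild type and 85.1 in *Matn3* mutant cartilage. For *Calcrl* the brightest probe set read 238 in XBP1 null and 34.0 in the double mutant, and a dimmer one 1.57 and 3.53.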

How the results depend on the processing

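No paired analysis was possible because each genotype has 1 array and the labels carry no replicate numbers. As reported, 3027 genes were higher, 3066 lower and 2359 the same way on both backgrounds. With only genes at or above the median intensity these were 810, 1149 and 521, with 2-fold in place of 1.5-fold 1748, 1798 and 1147, and with probe sets counted in place of genes 8131, 8772 and 6851, since fewer or more features enter. Under the other 5 settings (median centring, quantile normalization, a floor at the 25th percentile, the median over probe sets, no probe sets named with _x_at, _s_at or _a_at) all 15 counts stayed within 1.5 times. Of 200 list medians under these 5 settings, 199 stayed within 1.5-fold of the reported value. The exception was smooth muscle and pericytes without the probe sets so named, at -1.82 in place of -0.88. Of 1196 differences of named genes, 49 lay over 1.5-fold from the reported value. Of these, 33 came with the median over probe sets, 14 without the probe sets so named and 2 with the other floor. A further 3 changed sign, all without the probe sets so named, where a dimmer probe set was read: *Calcrl* at 1.17, *Cryab* at 0.74 and *Id2* at -1.29. The brightest probe sets of these 3 genes end in _a_at, which alone is no sign of binding to other genes. Quantile normalization moved the share of higher among differing genes from 49.7% to 53.1%. Differences of dim genes are the least certain, as 33.5% of all genes and 17.8% of those at or above the median intensity passed 1.5-fold.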
